A study of Mus musculus with 18 samples.

Results

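The H3K27me3 landscape was described in MC3T3-E1 subclone 4 cells, a pre-osteoblast line from the calvaria of C57BL/6 mice, on day 3 in osteogenic medium. The peaks were all intervals of the 2 merged H3K27me3 lists, 143399 from vehicle cells (DMSO, 0.25%) and 20764 from cells given EPZ6438 (2.5 µM). These 164163 peaks made up most of the 220492 peaks in the 4 lists analysed, and the other 56329 were of H3K4me3. A vehicle peak was called shared where at least 1 bp lay under a peak of the EPZ6438 list, and lost where none did. The series held 18 samples, with 2 each of H3K27me3, H3K4me3 and input per arm and 3 of RNA per arm. Both arms used the same subclone at passage 9 and the same medium, and the labels do not say whether the EPZ6438 arm also held DMSO. The model is 1 subclone of 1 line, and nothing in the labels says that samples came from separate cultures. P-values therefore cover no more than the differences between libraries, which may be technical.

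H3K27me3 is trimethylation of lysine 27 on histone H3. Polycomb repressive complex 2 (PRC2) writes it through its catalytic subunit EZH2, or EZH1, with the partners EED and SUZ12. The mark is found over silent genes, among them those of other cell lineages, and is thinned by cell division and by demethylases when it is not renewed. EPZ6438, also called tazemetostat, competes with the methyl donor S-adenosylmethionine at EZH2. PRC2 is known to settle at promoters rich in CG dinucleotides, and its marked regions often hold genes for developmental regulators.

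Promoters with many CG dinucleotides were more often under a shared vehicle peak, so the windows of 5 genes are shown first as examples. They span 250 bases before to 50 bases after the RefSeq start on GRCm38.p6, the assembly known as mm10, and are written 5′ to 3′ on the gene's strand with every CG in capitals. In 3 of them EPZ6438-list peaks covered 237 bases (Phf19) or all 300 bases (Wnt3a and Uncx). In the other 2 the vehicle peak covered all 300 bases and the EPZ6438 list none. Wnt3a encodes a secreted Wnt ligand, Uncx a homeobox factor of the axial skeleton, Phf19 an accessory subunit of PRC2, Ihh a Hedgehog ligand of growing cartilage and Cidec a lipid droplet protein of fat cells.
Wnt3a (chr11:59290702-59291001, minus strand, shared): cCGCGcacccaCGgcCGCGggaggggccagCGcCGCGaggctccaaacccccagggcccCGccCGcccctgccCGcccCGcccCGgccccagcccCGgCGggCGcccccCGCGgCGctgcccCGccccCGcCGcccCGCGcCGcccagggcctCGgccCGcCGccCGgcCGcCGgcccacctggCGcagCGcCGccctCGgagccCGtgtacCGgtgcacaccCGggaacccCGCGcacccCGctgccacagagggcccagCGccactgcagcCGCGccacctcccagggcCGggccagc
Uncx (chr5:139543648-139543947, plus strand, shared): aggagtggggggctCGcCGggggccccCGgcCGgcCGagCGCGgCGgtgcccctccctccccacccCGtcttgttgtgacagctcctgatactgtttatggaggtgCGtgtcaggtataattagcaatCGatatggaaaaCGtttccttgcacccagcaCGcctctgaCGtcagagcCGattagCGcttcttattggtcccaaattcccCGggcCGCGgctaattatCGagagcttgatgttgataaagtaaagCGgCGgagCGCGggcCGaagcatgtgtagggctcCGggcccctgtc
Phf19 (chr2:34913927-34914226, minus strand, shared): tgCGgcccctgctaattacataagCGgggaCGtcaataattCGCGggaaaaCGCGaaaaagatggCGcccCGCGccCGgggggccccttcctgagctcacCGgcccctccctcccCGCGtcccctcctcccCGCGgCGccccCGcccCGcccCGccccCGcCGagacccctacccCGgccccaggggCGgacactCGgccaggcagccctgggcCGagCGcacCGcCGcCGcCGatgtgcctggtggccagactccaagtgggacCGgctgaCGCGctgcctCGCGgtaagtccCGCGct
Ihh (chr1:74951623-74951922, minus strand, lost): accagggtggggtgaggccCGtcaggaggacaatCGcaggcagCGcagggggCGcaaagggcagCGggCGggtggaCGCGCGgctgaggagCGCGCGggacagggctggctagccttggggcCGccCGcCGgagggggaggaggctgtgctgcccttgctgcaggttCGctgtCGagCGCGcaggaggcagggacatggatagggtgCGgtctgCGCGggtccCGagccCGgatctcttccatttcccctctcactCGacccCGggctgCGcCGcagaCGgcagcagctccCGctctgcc
Cidec (chr6:113435711-113436010, minus strand, lost): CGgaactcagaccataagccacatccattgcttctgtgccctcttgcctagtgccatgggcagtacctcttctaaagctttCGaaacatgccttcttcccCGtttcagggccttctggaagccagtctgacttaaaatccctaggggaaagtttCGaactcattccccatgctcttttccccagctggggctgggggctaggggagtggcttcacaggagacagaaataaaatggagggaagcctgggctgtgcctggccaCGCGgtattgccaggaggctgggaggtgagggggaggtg
These windows hold 45 CG (Wnt3a), 26 (Uncx), 38 (Phf19), 30 (Ihh) and 6 (Cidec). The shared ones printed are all rich in CG and do not stand for their class. Other shared windows of named genes held between 6 CG (Wnt8b) and 30 CG (a window of Pax2), with 13 at Slc17a7 and 22 at Foxn4. Ihh shows that a CG-rich window can also be lost, here under a vehicle peak of 495 bp. At Gata2 a window with 32 CG lay under a lost vehicle peak of 2451 bp. Of the 3 vehicle peaks at or inside Ihh, 1 away from the ends was shared.

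Across all 32851 RefSeq promoter windows, 778 lay under lost vehicle peaks only and 314 under a shared one. A window counted as shared need not itself lie under an EPZ6438-list peak. At Bcan, Sfrp5 and Wnt8b such peaks covered 0 bases of the shared window. The median number of CG was 5 in the lost windows, 13.5 in the shared windows and 7 in all. At least 20 CG stood in 18.8% of lost windows (95% exact binomial interval 16.1 to 21.7), 40.4% of shared windows (35.0 to 46.1) and 26.5% of all windows. Read the other way, the vehicle peak was shared at 18.4% of marked windows with under 5 CG, 28.0% with 5 to 19 and 46.5% with 20 or more. The windows with 20 or more CG also had the highest share within width groups. At peaks up to 1000 bp wide the shares were 11.0%, 12.0% and 39.2%, and at wider peaks 32.5%, 47.6% and 59.8%. Among windows of genes under 1 RPKM (reads per kilobase of gene length, scaled to library size) in vehicle, 26.9% of lost and 47.8% of shared windows had 20 or more CG, against 14.3% without a peak. Intervals here and below are 95% exact binomial intervals that cover counting error only, since neighbouring peaks and genes are not independent.

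The cells carried the osteoblast markers fixed for the check. In vehicle libraries 1 to 3, Runx2, a master regulator of the lineage, was at 31.9, 30.6 and 28.7 RPKM, and Ibsp, which encodes bone sialoprotein, at 217, 185 and 177 RPKM. Among markers of other cells, Acan, Myod1, Myog, Cdh5 and Rbfox3 were at 0 in all 6 libraries and Ptprc, Snap25, Fabp4, Adipoq and Pecam1 stayed at or under 0.171 RPKM. Col2a1, a cartilage collagen, was the exception at 10.3, 15.0 and 18.4 RPKM in vehicle and 77.6, 107 and 88.4 RPKM in EPZ6438, and it held no H3K27me3 peak. RNA depth ran from 18807156 to 25365513 reads in genes. The peak lists hold starts and ends only, so depth, height and replicate spread of the peaks are unknown here. Every comparison of peaks between arms is therefore a description of 2 lists, with no test.

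Most of the vehicle landscape was missing from the EPZ6438 list. Of 143399 vehicle peaks, 127867 were lost (89.2%, interval 89.0 to 89.3) and 15532 were shared (10.8%). Lost peaks spanned 71.6 Mb and shared peaks 17.7 Mb of the 89.4 Mb in the vehicle list. The EPZ6438 list spanned 11.6 Mb in all, and 4961 of its peaks (23.9%) met no vehicle peak. A lost peak is one with no called peak over it, which does not show that the mark was absent, since the height and the calling threshold are not given.

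Shared peaks were also much reduced in length. EPZ6438-list peaks covered a median 50.8% of a shared vehicle peak (quartiles 25.7% and 80.4%), and 1277 of 15532 were covered end to end. By bases, 39.8% of shared peaks and 7.89% of the whole vehicle list stayed covered. In 15017 shared peaks the remainder was 1 EPZ6438-list peak, and in 515 it was broken into 2 or more, up to 4. The covered part shrank with width, from a median 85.6% of peaks up to 250 bp to 22.6% of peaks over 4000 bp. The overlap rule sets part of that trend. A touch of 1 bp makes a peak shared, and an EPZ6438-list peak of the median width, 425 bp, can cover only a small part of a wide one.

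Wide vehicle peaks were the ones most often still touched. The median width was 803 bp for shared peaks (quartiles 372 and 1505) and 367 bp for lost peaks (204 and 738). From the narrowest to the widest of 6 classes, 4.57%, 8.55%, 10.9%, 21.2%, 40.5% and 68.4% of peaks were shared. The class over 4000 bp held 677 vehicle peaks, of which 463 were shared and 214 lost, while the EPZ6438 list had 20 peaks of that width. The width gap depended on the overlap rule. Counting a peak as shared only where at least 50% of it was covered brought the ratio of medians from 2.19 to 1.15, and using the midpoint brought it to 1.35.

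**Figure D1:**
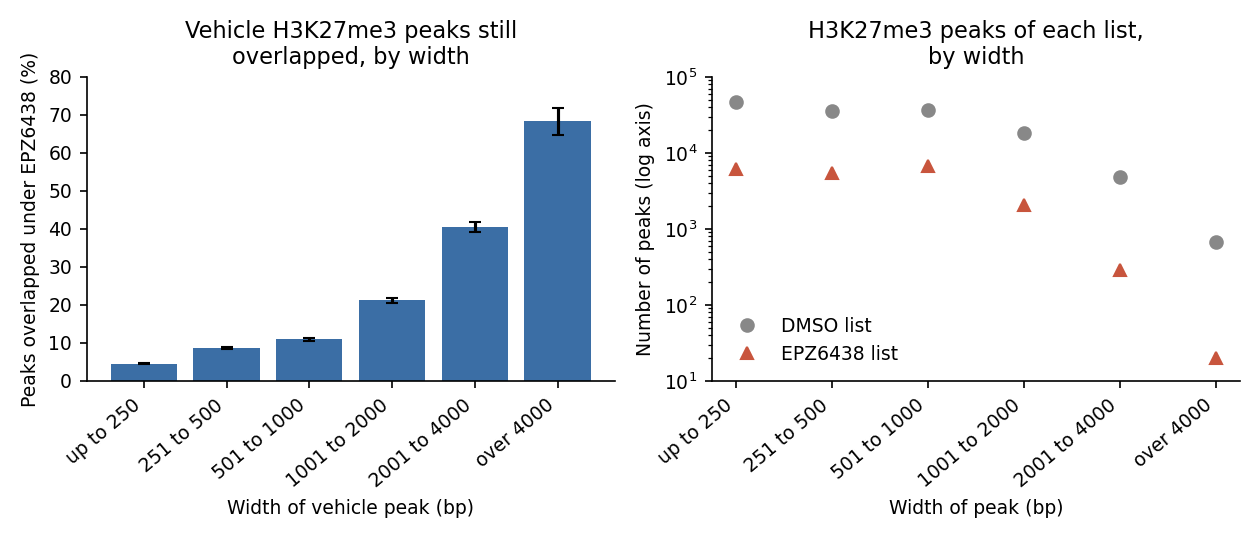
Left, percent of vehicle (DMSO) H3K27me3 peaks overlapped by at least 1 bp of an EPZ6438-list peak, by vehicle peak width in bp, with 95% exact binomial intervals as error bars. Right, number of peaks in each merged list by width on a log axis. The overlapped share climbed from 4.57% to 68.4%, while the EPZ6438 list fell from 6149 peaks up to 250 bp to 20 over 4000 bp.

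The widest peaks of each class are described next. The widest shared peak (chr19:45284141-45296202, 12062 bp) lay 4251 bp from Gm29595, and 3 EPZ6438-list peaks covered 38.8% of it. The next spanned 10862 bp at the end of Fam115c on chromosome 6, with 34.5% covered by 3 peaks. At Onecut3 on chromosome 10, which encodes a homeobox factor, 20.2% of 9645 bp was covered. Fam115c was the expressed one of these, at 2.31 ± 0.128 RPKM (SD, n = 3) in vehicle and 3.04 ± 0.613 RPKM in EPZ6438, which did not pass the test (limma adjusted p = 0.264).

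The widest lost peak (chr16:78184616-78193536, 8921 bp) lay in a region without near genes, 46721 bp from Gm25916. The next (7671 bp) lay on chromosome 2 within 1 kb of Trub2, which encodes a pseudouridine synthase, and of Gm13547, which was near 0 RPKM. Trub2 was at 7.43 ± 0.146 RPKM in vehicle and 7.33 ± 0.0464 RPKM in EPZ6438 (SD, n = 3; limma adjusted p = 0.923). A lost peak of 7487 bp lay 1593 bp from Calm5. The widest lost peaks thus included a site beside an expressed gene, Trub2.

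Both classes lay mainly between genes, and shared peaks lay nearer to them. Gene ends, meaning within 1 kb of either end of a gene of the table, held 5.44% of lost peaks (interval 5.32 to 5.57) and 8.01% of shared peaks (7.59 to 8.45). Such windows make up 5.10% of the span of the chromosomes covered by the table. That is a share of bases, whereas a peak counted if any of its bases touched a window. Wide peaks touch windows more often, so shares of peaks and of span in this paragraph are not like for like. Peaks inside genes were 32.6% of lost and 34.6% of shared peaks, where gene interiors make up 38.2% of the span. Intergenic peaks were 61.9% and 57.4%, against 56.7% of the span. Among intergenic peaks the median distance to the nearest gene was 20720 bp for lost and 15712 bp for shared peaks. Beyond 200 kb lay 5.12% of lost intergenic peaks and 0.965% of shared ones.

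The higher gene-end share held within widths up to 4000 bp. It was 5.78% for shared against 4.64% for lost peaks up to 250 bp, and 9.32% against 7.05% at 1001 to 2000 bp. Over 4000 bp it was 10.8% and 12.1%, with intervals of 8.12 to 14.0 and 8.09 to 17.3 that overlap. For 12883 genes whose strand could be read from the RefSeq promoter table, the start of the gene held a lost peak in 10.1% and the finish in 7.54%. A shared peak stood at the start of 2.27% and at the finish of 1.30%. The gene-end difference of 2.57 percentage points became 1.71 when only protein-coding genes were used.

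Shared peaks sat in denser neighbourhoods. The median gap to the nearest vehicle peak was 1515 bp for shared and 2497 bp for lost peaks, and the median number of other vehicle peaks within 10 kb was 4.00 and 2.00. Of vehicle peaks with no neighbour within 10 kb 2.56% were shared, rising through 5.67%, 10.7% and 16.7% to 20.2% with over 5 neighbours. The order was the same among peaks up to 250 bp (1.33% to 9.31%) and among peaks over 1000 bp (7.86% to 38.3%). A lost peak lay a median 40148 bp from the nearest shared peak, and 34.5% lay beyond 100 kb from one.

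**Figure D2:**
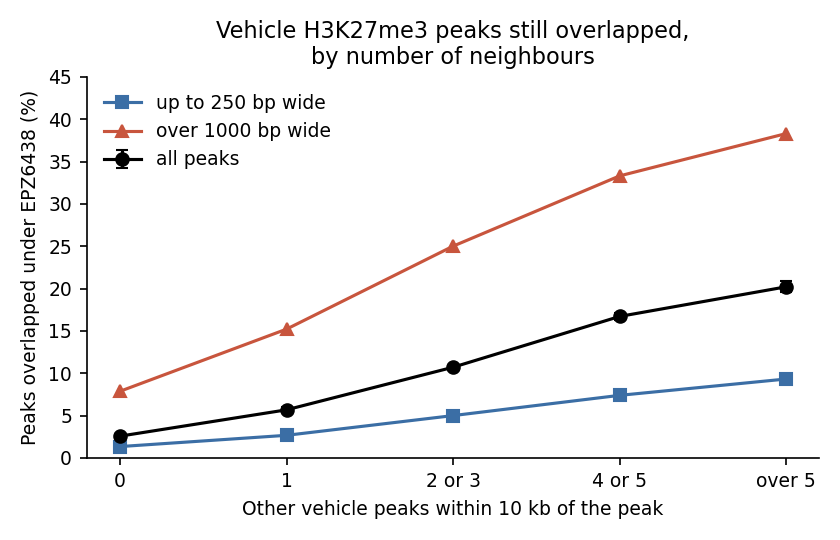
Percent of vehicle H3K27me3 peaks overlapped by an EPZ6438-list peak against the number of other vehicle peaks within 10 kb, for all peaks (95% exact binomial intervals), peaks up to 250 bp and peaks over 1000 bp. The share climbs from 2.56% to 20.2% for all peaks, and climbs in both width groups.

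Joining vehicle peaks separated by at most 5 kb gave clusters, and larger clusters kept more of their peaks. Peaks standing alone were shared in 4.20% of 39605 cases. The share was 9.96% in clusters of 2 to 5, 17.7% in clusters of 6 to 20 and 28.1% in clusters over 20 peaks. At least 1 shared peak remained in 164 of 166 clusters over 20, and in 22.0% of clusters of 2 to 5. Among clusters of 6 or more peaks none was shared throughout. These counts of clusters depend on size, since a cluster of many peaks is likely to hold both shared and lost ones.

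The 5 largest clusters each held shared and lost peaks. The largest, of 70 peaks over 185 kb on chromosome 19, reached Pax2, a paired-box factor of kidney and eye development, and 29 of its peaks were shared. Next came 62 peaks (25 shared) at Cecr2, a chromatin remodelling gene, on chromosome 6. On chromosome 11, 54 peaks (15 shared) crossed the keratin genes Krt222, Krt24, Krt25, Krt26, Krt27 and Krt28. The others held 51 peaks (17 shared) at Frmpd1 on chromosome 4, and 48 peaks (10 shared) at Fibcd1, Lamc3 and Aif1l on chromosome 2. Pax2 RNA was at 0 in all 3 vehicle libraries.

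Autosomes differed in how much of the landscape was shared. The share ran from 6.74% of 4569 peaks on chromosome 13 (interval 6.03 to 7.51) to 15.1% of 5753 on chromosome 19 (14.2 to 16.0). Chromosomes 6 (14.1%), 2 (13.2%) and 17 (12.9%) were the others over 12%. Chromosomes 16, 14, 3, 12 and 18 were under 9%, between 7.56% and 8.49%, as was chromosome 13. From chromosome 8 (10.4%) to chromosome 4 (10.8%) 7 neighbours in this order had overlapping intervals. The X chromosome shared 59 of 1813 peaks (3.25%), and the Y chromosome 0 of 22, which allows up to 15.4%.

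Across the 19 autosomes the shared percentage ran with the density of vehicle peaks, with a Pearson correlation of 0.93 and a Spearman correlation of 0.92. Chromosome 19 had 98.8 vehicle peaks per Mb and chromosome 14 had 30.8. The correlation was 0.87 (Spearman 0.83) with the median width of vehicle peaks and 0.48 (Spearman 0.61) with genes per Mb. These are descriptions over points that share the same 2 lists. Density, width and spacing move together along chromosomes, and their separate parts were not tested.

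**Figure D3:**
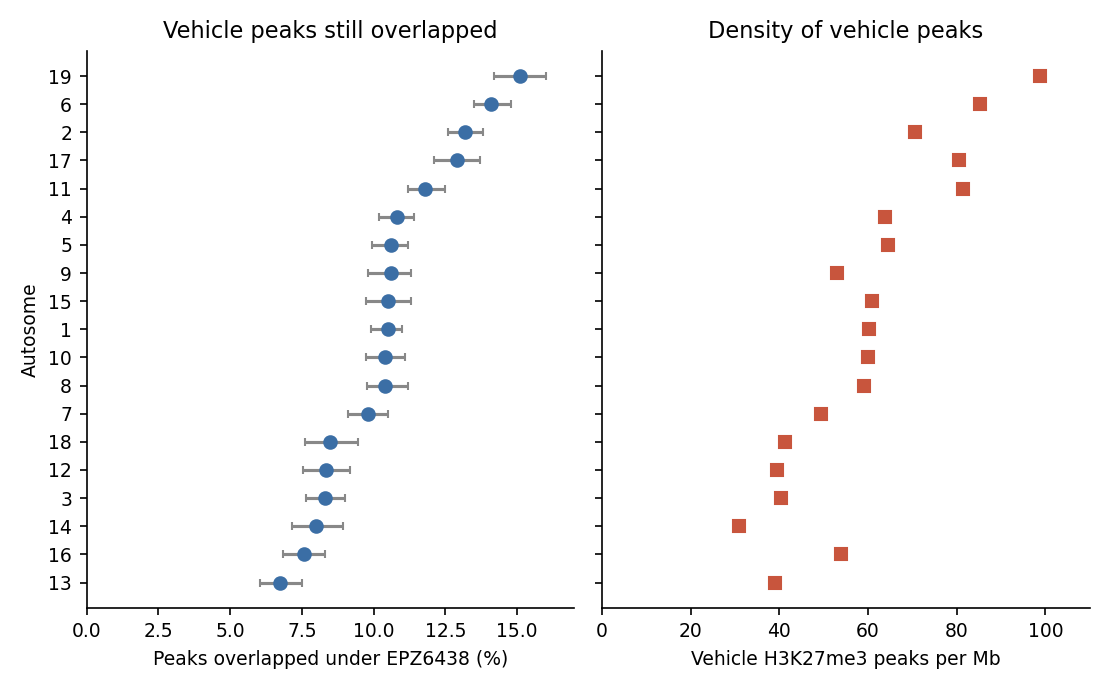
Left, percent of vehicle H3K27me3 peaks overlapped by an EPZ6438-list peak on each autosome, with 95% exact binomial intervals, sorted. Right, vehicle peaks per Mb of the same autosome. Chromosome 13 is lowest at 6.74% and chromosome 19 highest at 15.1%, and the densest autosomes stand near the top.

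H3K4me3, a mark known from active and poised promoters, overlapped shared peaks more often than lost ones. In the vehicle H3K4me3 list it overlapped 10.1% of lost peaks (interval 9.94 to 10.3) and 26.4% of shared peaks (25.8 to 27.1). The difference held in each width class, from 5.63% against 8.75% up to 250 bp to 60.7% against 75.4% over 4000 bp. Promoters under shared peaks did not stand out from unmarked ones. The vehicle H3K4me3 list overlapped 8.60% of RefSeq promoter windows under shared peaks, 5.27% under lost peaks and 9.63% with no H3K27me3 peak. Under EPZ6438 the H3K4me3 list overlapped 0.215% of lost and 0.850% of shared vehicle peaks. The 2 H3K4me3 lists differ in character. Of 40113 vehicle H3K4me3 peaks 23.5% lay at gene ends and 48.0% overlapped a vehicle H3K27me3 peak, while of 16216 EPZ6438 H3K4me3 peaks 72.2% lay at gene ends and 2.64% overlapped one. The part of that difference in the overlap of marks was not tested.

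Genes with the mark at their ends were mostly silent in vehicle cells, more so where a peak was shared. Of 43309 genes, 5760 (13.3%) had vehicle peaks at their ends that were all lost, 1237 (2.86%) had 1 or more shared, 221 had a peak in the EPZ6438 list only and 36091 had none. The median vehicle RPKM was 0 in both marked classes. At least 1 RPKM was reached by 10.5%, 10.8% and 11.0% of genes with all peaks lost in vehicle libraries 1 to 3, and by 5.66%, 5.34% and 5.42% of genes with a shared peak. Each of those libraries had 32.5% of unmarked genes at that level. The ranges of the 3 libraries did not overlap between classes, but the libraries share the same genes and are no test of the peaks.

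Protein-coding genes showed the same order. By mean vehicle RPKM, 14.7% of 3044 with all end peaks lost (interval 13.5 to 16.0) and 4.82% of 705 with a shared end peak (3.36 to 6.67) reached 1 RPKM, against 55.7% of 18140 without a peak. For protein-coding genes with peaks inside but none at the ends, the share was 36.8% of 2961 with all lost and 9.18% of 773 with 1 or more shared, against 62.0% of 14406 with no peak. Those with a shared inside peak were long, with a median span of 94.1 kb against 46.6 kb. The difference between classes at gene ends over all genes, -5.31 percentage points, was -3.12 with a window of 0.5 kb, -9.30 with 2 kb and -14.9 with 5 kb.

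**Figure D4:**
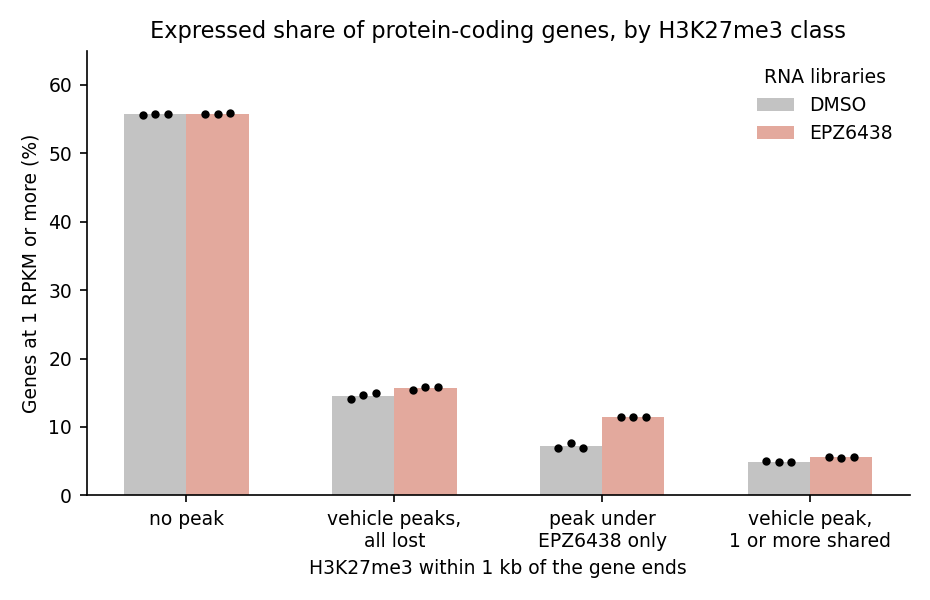
Percent of protein-coding genes at 1 RPKM or more by the H3K27me3 class of their ends, with a point for each RNA library and a bar for the mean of 3 libraries per arm. Genes with no peak stand between 55.6% and 55.9% in every library, and those with a shared peak between 4.82% and 5.67%.

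Lists of developmental regulators held the mark at the ends of some members. Over all genes, as given above, 13.3% had end peaks that were all lost and 2.86% had a shared one. Vehicle end peaks stood at 14 of 30 bHLH lineage factors (5 with a shared peak), 37 of 85 homeobox factors outside the Hox clusters (15 shared), 15 of 38 Pax, Sox, Gata and T-box factors (4 shared), 14 of 39 Hox genes (3 shared) and 11 of 44 forkhead factors (4 shared). Among signalling genes the counts were 12 of 34 Wnt ligands and receptors (5 shared), 7 of 16 Wnt antagonists (1 shared) and 8 of 21 Hedgehog pathway genes (1 shared). Genes of other lineages included 5 of 9 endothelial genes (3 shared), 4 of 9 blood cell genes (1 shared), 4 of 13 skeletal muscle genes (0 shared), 5 of 18 neuronal genes (2 shared), 3 of 11 fat cell genes (1 shared) and 3 of 16 cartilage genes (1 shared). These counts describe short lists and are no test of them.

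At silent genes of these lists the called mark stayed in some cases and was lost in others. At Uncx 3266 bases of vehicle peaks lay within 1 kb of the ends, and EPZ6438-list peaks stood over 2314 bases of the same windows. Neurod2, a bHLH factor of neurons, had 2723 and 1921 bases, and Six3, a factor of forebrain and eye, 2668 and 831 bases. All 3 were at 0 RPKM in all 6 libraries. The RefSeq promoter window of Six3 itself had 300 bases under a lost vehicle peak and 0 under the EPZ6438 list. Wnt3a, also at 0 throughout, had 1464 bases in vehicle and 1790 in EPZ6438, the reverse order. Foxi1 (831 bases in vehicle), Kremen2 (1068) and Myog (897) lost every end base and were likewise at 0 RPKM in all 6 libraries. Gata2, a factor of blood progenitors, lost all 1720 bases, and its RNA was 0.493 ± 0.205 RPKM in vehicle and 1.06 ± 0.0699 RPKM in EPZ6438 (SD, n = 3), which did not pass (limma adjusted p = 0.0625). It passed with pseudocounts of 0.5 and 1 RPKM (limma adjusted p = 0.0486 and 0.0429), with voom (0.0458) and without DMSO replicate 3 (0.0172), in a range of 0.0172 to 1.00 over all alternatives.

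Genes active in this cell type stood at the other end. None of 22 osteoblast genes had an end peak in either list, and of these 14 rose and 1 fell in RNA under EPZ6438, where over all 14213 tested genes 3.80% rose and 3.24% fell (7.04% changed). The median log2 change of the list was 0.80 against -0.03 over all tested genes. Of the cartilage list 6 of 11 tested genes rose and 0 fell, with a median log2 change of 0.59. Sp7, a transcription factor needed for osteoblasts, was at 52.6, 53.8 and 55.8 RPKM in vehicle and 99.1, 105 and 101 RPKM in EPZ6438 without a peak at or inside it. Of 77 ribosomal protein genes 6 had end peaks and of 39 proteasome genes 2, all lost. Reads and peaks of ribosomal protein genes are uncertain because of their pseudogene copies. Large receptor families were marked thinly, with 95 of 1097 olfactory receptor genes (7 shared) and 18 of 325 vomeronasal receptor genes (2 shared).

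PRC2 genes carried end peaks about as often as all genes. Of 13 genes of PRC2 and H3K27 enzymes 2 had them, 1 all lost and 1 shared, where 13.3% and 2.86% of all genes fell in those classes. Ezh2 stood at 16.2, 14.3 and 12.6 RPKM in vehicle and 15.4, 14.1 and 15.1 RPKM in EPZ6438, with overlapping arms and no peak at or inside it (limma adjusted p = 0.839). An inhibitor acts on the enzyme, so this RNA level does not report its activity. Ezh1, the other catalytic subunit, had 29 bases of a lost peak and was at 5.97, 6.28 and 5.78 RPKM against 4.82, 4.73 and 4.94 RPKM, lower in every EPZ6438 library but not past the test (adjusted p = 0.113). Phf19, whose promoter is printed above, had 1702 bases in vehicle and 237 under EPZ6438. Its RNA was 0.285, 0.411 and 0.313 RPKM in vehicle and 0.745, 0.855 and 0.773 RPKM in EPZ6438, so the arms did not overlap, as they did not in 26.7% of all tested genes. It rose (log2 change 1.04, SE 0.18, limma adjusted p = 0.0171), a call lost without any 1 of the EPZ6438 libraries and without the filter on low counts.

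The RNA libraries were then read by the H3K27me3 class of gene ends. Over all 14213 tested genes 7.04% passed an adjusted p of 0.05 in limma, with 3.80% rising and 3.24% falling. Among the 970 tested genes with all end peaks lost, 109 rose and 15 fell, and among the 127 with a shared end peak, 25 rose and 2 fell. These tested genes are a minority of their classes of 5760 and 1237, and 33 and 13 of them passed the filter on reads through EPZ6438 libraries alone, which favours rises. Among genes with at least 10 reads in all 3 vehicle libraries, 73 of 807 with all peaks lost and 10 of 96 with a shared peak rose, against 443 of 13431 (3.30%) in all. Rises were not limited to genes with vehicle peaks. Of 37 tested genes with an end peak in the EPZ6438 list only, 11 rose and 1 fell. With at least 10 reads in all 3 vehicle libraries, 5 of 28 such genes rose. Seen from the changed genes, 20.2% of the 540 that rose had lost end peaks and 4.63% a shared one, while 73.1% had no end peak. Of the 461 that fell the shares were 3.25%, 0.434% and 96.1%, and of all tested genes 6.82%, 0.894% and 92.0%. The test against a 1.5-fold change left 32 rises with all peaks lost and 5 with a shared peak. Without DMSO replicate 2, EPZ6438 replicate 1, 2 or 3 the rises with all peaks lost were 58, 58, 62 and 50, and those with a shared peak 12, 12, 12 and 11.

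The genes described next had the largest rises among those with all end peaks lost, arms that did not overlap (26.7% of all tested genes) and a higher arm of 1 CPM or more. Eln, which encodes elastin, was at 0.0412, 0.0871 and 0.198 RPKM in vehicle and 1.84, 3.43 and 1.89 RPKM in EPZ6438. All 3 EPZ6438 values lay above all vehicle values, which rest on 2, 5 and 13 reads. Passing the filter on reads therefore also needed EPZ6438 libraries. Depth-scaled reads were 21.0 times higher in sum (counting interval 13.4 to 34.7), and the log2 difference of 3.59 (SE 0.35, limma adjusted p = 0.00187) ran from 1.58 to 4.51 over the alternatives, which include other pseudocounts. Eln lies on chromosome 5 and had 8 vehicle peaks at or inside it, none of them shared.

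Slc8a3, a sodium-calcium exchanger gene on chromosome 12, was at 0.847, 0.827 and 0.739 RPKM in vehicle and 8.93, 9.59 and 8.87 RPKM in EPZ6438. The arms were far apart (log2 change 3.35, SE 0.12, limma adjusted p = 8.15e-05). Its lost end peak covered only 219 bases, and of 13 vehicle peaks at or inside the gene 1 was shared. Cd200, a surface glycoprotein gene on chromosome 16, went from 0.112, 0.217 and 0.131 RPKM to 2.52, 2.01 and 2.44 RPKM without overlap (log2 change 3.27, SE 0.21, adjusted p = 0.000473). Its vehicle values rest on 34 reads in all (7, 16 and 11), so passing the filter on reads also needed EPZ6438 libraries. The log2 change ran from 1.52 to 3.90 over the alternatives. All 5 of its peaks were lost.

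Hpse, which encodes heparanase, was at 0.514, 0.486 and 0.549 RPKM in vehicle and 6.66, 5.28 and 5.45 RPKM in EPZ6438. It rose (log2 change 3.25, SE 0.15, limma adjusted p = 0.000132), and 2 of its 12 peaks, away from the ends, were shared. H19, an imprinted noncoding RNA, was at 0.157, 0.0569 and 0.0498 RPKM in vehicle and 1.68, 1.19 and 1.24 RPKM in EPZ6438. It rests on 13 vehicle reads in all (7, 3 and 3), so it was tested because of its reads in EPZ6438 libraries. H19 rose (log2 change 3.00, SE 0.26, limma adjusted p = 0.00146), with depth-scaled reads 16.5 times higher (counting interval 9.46 to 31.6). Whether counting used strand is not given in the sources used here, so antisense reads may be counted with its own.

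Members of the gene lists also changed in this class. Notum, a secreted Wnt antagonist, was at 0.817, 1.16 and 1.42 RPKM in vehicle and 2.54, 3.25 and 2.67 RPKM in EPZ6438 and rose (log2 change 1.27, SE 0.21, limma adjusted p = 0.0159). Matn3, a matrilin of cartilage, went from 0.482 ± 0.207 to 1.65 ± 0.277 RPKM (SD, n = 3; limma adjusted p = 0.0193) and Des, the muscle filament desmin, from 0.811 ± 0.200 to 1.56 ± 0.190 RPKM (SD, n = 3; limma adjusted p = 0.0440). All 3 calls were lost without any 1 of the EPZ6438 libraries. Those of Notum and Des were also lost without DMSO replicate 2, and that of Des without DMSO replicate 1. Counted over marked and unmarked members, 5 of 8 tested Wnt antagonists rose and 3 fell, 7 of 22 Wnt ligands and receptors rose and 0 fell, and 2 of 14 Hedgehog genes rose and 1 fell. The others did not pass, and over all tested genes 3.80% rose and 3.24% fell.

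The falls among genes with all end peaks lost were few and smaller. Oasl2, an interferon-induced gene, was at 0.836, 1.52 and 1.36 RPKM in vehicle and 0.392, 0.278 and 0.167 RPKM in EPZ6438. Its arms did not overlap and it fell (log2 change -1.83, SE 0.30, limma adjusted p = 0.0145), a call lost without DMSO replicate 2 and without EPZ6438 replicate 2 or 3. I830012O16Rik, an Ifit family gene with close copies, so that its reads are uncertain, was at 1.09, 1.53 and 0.985 RPKM against 0.404, 0.311 and 0.200 RPKM and fell (adjusted p = 0.0101), a call lost without DMSO replicate 2. Alox5ap, needed for leukotriene synthesis, was at 5.61, 5.22 and 5.13 RPKM against 2.12, 2.28 and 2.22 RPKM. It fell (log2 change -1.23, SE 0.11, adjusted p = 0.00146).

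**Figure D5:**
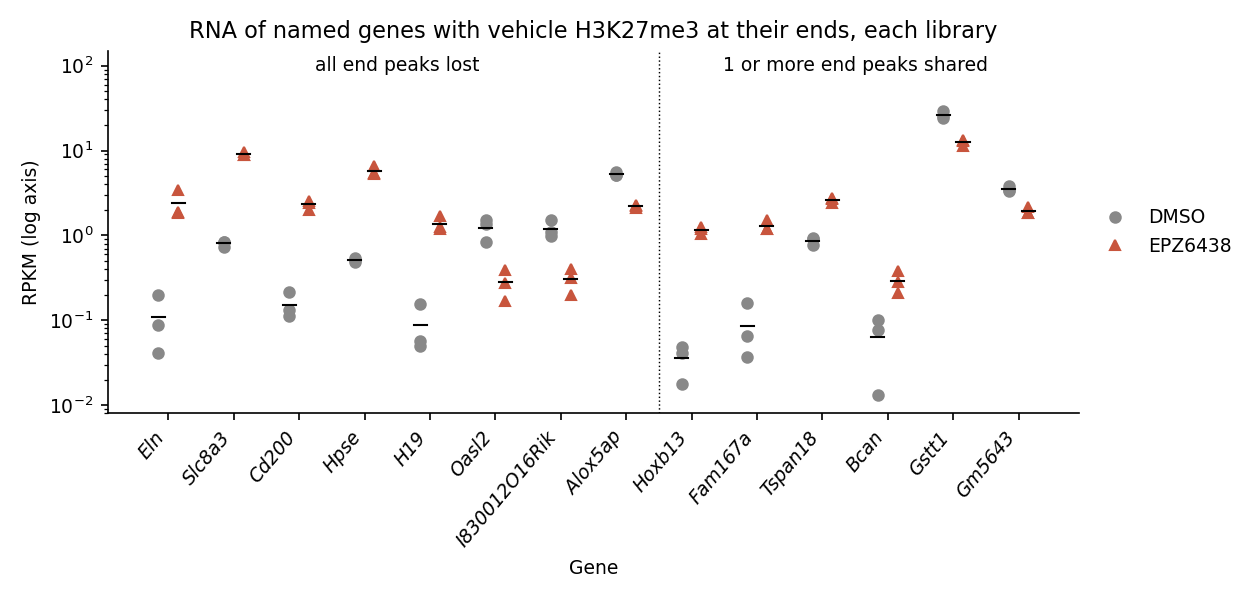
RPKM on a log axis in each of 3 DMSO and 3 EPZ6438 RNA libraries, with a bar at each mean. Drawn are the largest rises and falls given in the text among genes with vehicle H3K27me3 within 1 kb of their ends. Members taken from the gene lists, such as Notum and Wnt7b, are not drawn. Left of the dotted line all end peaks were lost, right of it 1 or more was shared (1.84 to 3.43 RPKM against 0.0412 to 0.198 in Eln, for example). Genes were chosen among those whose arms do not overlap, so the separation seen in each is set by the choice.

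The rises given here with a shared end peak were chosen by the same rule. In vehicle, no library reached 10 reads for Hoxb13 or Bcan and 1 did for Fam167a, so these genes were tested because of their reads in EPZ6438 libraries. Hoxb13, the most posterior gene of its Hox cluster, was at 0.0482, 0.0408 and 0.0179 RPKM in vehicle and 1.03, 1.26 and 1.18 RPKM in EPZ6438. Vehicle reads were 2, 2 and 1, and depth-scaled reads were 34.0 times higher in sum under EPZ6438 (counting interval 14.3 to 106; limma adjusted p = 0.000313). Vehicle peaks covered 2429 bases and EPZ6438-list peaks 2569 bases within 1 kb of its ends, so this gene rose under a mark of about the same called length.

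Fam167a had a similar form, with 1269 bases in vehicle and 1321 under EPZ6438. Its RNA was 0.0373, 0.158 and 0.0646 RPKM in vehicle and 1.18, 1.18 and 1.51 RPKM in EPZ6438 (log2 change 2.94, SE 0.27, limma adjusted p = 0.00155). Vehicle reads were 3, 15 and 7, and the log2 change ran from 1.07 to 4.00 over the alternatives.

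Tspan18, a tetraspanin gene, was at 0.761, 0.936 and 0.911 RPKM in vehicle and 2.38, 2.75 and 2.68 RPKM in EPZ6438. It rose without overlap (log2 change 1.48, SE 0.15, limma adjusted p = 0.00193), and of its 32 vehicle peaks 2 were shared. Bcan, which encodes the proteoglycan brevican, was at 0.0131, 0.0996 and 0.0776 RPKM against 0.210, 0.377 and 0.283 RPKM (adjusted p = 0.0443), a call lost when any 1 library was left out. Wnt7b, a Wnt ligand gene taken from the Wnt list, was at 0.229, 0.133 and 0.179 RPKM against 0.495, 0.497 and 0.634 RPKM and rose (adjusted p = 0.0168), with 1444 end bases in vehicle and 252 under EPZ6438. Its call was lost without DMSO replicate 2 or any 1 of the EPZ6438 libraries.

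Both genes with a shared end peak that fell are named here. Gstt1, a glutathione transferase gene expressed in this line, was at 23.9, 25.8 and 29.0 RPKM in vehicle and 11.2, 13.2 and 13.0 RPKM in EPZ6438. It fell (log2 change -1.07, SE 0.11, limma adjusted p = 0.00218), with 191 and 192 bases of peak in the arms. Gm5643, a processed pseudogene on the X chromosome whose reads may belong to its parent gene, was at 3.30, 3.77 and 3.47 RPKM against 1.82, 2.18 and 1.86 RPKM and fell (adjusted p = 0.0131). That call was lost without DMSO replicate 2 and without EPZ6438 replicate 1 or 3. In bulk RNA, fewer cells expressing a gene and less RNA per cell cannot be told apart.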

How the data were processed

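RNA and chromatin immunoprecipitation samples were grouped by the labels. The authors deposited RPKM for 43346 genes, per the file headers, and 1 merged peak list per mark and arm with starts and ends only (other values), called against input per the file names. Per the submitters' processing notes the build was mm10 and the tools were STAR 2.6.1c, MACS2, HOMER, DiffBind, Subread, Picard, FastQC and bcl2fastq, with no roles. The peak caller's thresholds are not stated.

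Peaks were compared with numpy 2.4.6 and pandas 2.3.3, at a minimum overlap of 1 bp. A window of 1 kb lay to each side of both gene ends, since the table has no strand. The 37 mitochondrial genes were left out. RPKM times length gave whole reads for 100% of values (tolerance 0.001). A gene needed at least 10 reads in at least 3 libraries. The test was limma 3.58.1 in R 4.3.3 (trend, two-sided) on log2(RPKM + 0.1), which understates changes of low genes, with Benjamini-Hochberg adjustment. On simulated reads for 14213 genes it recovered 52% of 1.5-fold and 88% of 2-fold changes. No replicate library was a copy of another (chi-square of 6.47 to 61.7 per gene). A floor of 3 reads is 0.118 to 0.160 CPM.

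Members, lists and rules were chosen with earlier results of these data known. Genes were named by rule: the genes at the 5 widest peaks of each class, the 5 largest rises and 3 largest falls per class with arms apart and at least 1 CPM, the genes Ezh2, Eed and Suz12, up to 3 members per list by marked length, and the markers. Genes of the 5 largest clusters were named after the values were seen. Results of some single genes are not reported here. Promoter sequences came from RefSeq, matching 18182 of 43309 genes by symbol. Figures used matplotlib 3.10.9.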

Additional observations from a re-analysis of the deposited data

How the results depend on the processing

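Directions of the peak results held under every alternative run, other than for the median vehicle RPKM, which was 0 in both classes. Requiring 50% coverage, a midpoint inside an EPZ6438-list peak, peaks of at least 400 bp, or joining peaks within 1 kb gave a lost share of 94.5%, 93.6%, 89.9% and 88.7%. In the same order the ratio of median widths was 1.15, 1.35, 1.55 and 2.69, the ratio of median gaps 0.678, 0.657, 0.567 and 0.640, and the H3K4me3 difference 10.0, 12.9, 17.3 and 18.5 percentage points. The gene-end difference was 1.83 points at 50% coverage, 3.43 with joined peaks, 3.11 and 3.84 with windows of 2 and 5 kb, and 1.71 with protein-coding genes. The inside-gene difference was 3.38 at 50% coverage, 2.97 by midpoint and 1.09 with 5 kb. With peaks of at least 400 bp, autosomes lost between 86.1% and 94.1%. The mean log2(RPKM + 0.1) of genes with shared peaks was 0.38 under that of genes with lost ones (-0.38), and the expressed share differed by -3.12, -9.30 and -14.9 points with windows of 0.5, 2 and 5 kb and -9.89 for protein-coding genes. The use of autosomes alone, of the share at 1 RPKM and of genes with reads in all vehicle libraries was chosen after seeing the data.

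Without a filter on low counts, 628 genes changed, 355 rising and 273 falling, with 64 rises and 9 falls at lost and 15 rises at shared peaks. Against a 1.5-fold change 118 changed (101 rising, 17 falling), with 32 rises and 1 fall at lost and 5 rises and 0 falls at shared peaks. With 10 reads in all vehicle libraries 10 rises had a shared peak. Leaving out 1 library gave 323 to 978 changed, 227 to 515 rising and 90 to 463 falling genes, with 50 to 103 rises and 3 to 15 falls at lost and 11 to 19 rises and 1 to 3 falls at shared peaks. Of 26 named genes past the threshold, 14 passed in every alternative and 16 in every one but the 1.5-fold test. Median-of-ratios scaling moved the median of all genes by 0.032 on the log2 scale.

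With the replicate number as a block, 1051 genes changed, and 4 with a shared peak fell. Gata2, which did not pass without the block, had an adjusted p of 0.0498 with it. Same-numbered libraries had deviations correlated at 0.410, 0.0781 and 0.0561. DMSO replicates 1 and 2 correlated best with their own number, and DMSO replicate 3 with EPZ6438 replicate 2 (0.3305). Whether same-numbered libraries were paired cannot be told from 3 libraries per arm. The depth of the peak lists is unknown, and whether lost peaks fell below a calling threshold was not tested.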
